A study of Mus musculus with 16 samples.

Results

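The genes described here are 10 activity-induced genes of the mouse striatum: the transcription factors Egr1, Egr2, Egr3 and Egr4, the nuclear receptors Nr4a1, Nr4a2 and Nr4a3, the transcription factor Npas4, the synaptic protein gene Arc, and Ier2. They were taken by symbol, 10 of the 24421 genes in the count data, and all 10 passed the filter on low counts that left 13563 genes to test. Striatal RNA was sequenced from 16 mice, all 13 months of age at harvest. Con+Con mice had the control genotype and received a control virus, and Con+Foxp2 mice had the control genotype and received a virus for Foxp2 overexpression. BACHD+Con and BACHD+Foxp2 mice carried the BACHD transgene, a bacterial artificial chromosome with mutant human huntingtin used as a model of Huntington disease, and received the control or the Foxp2 virus. Each group held 4 mice, and all 16 had been injected, so no group shows the uninjected striatum. Neither the type of virus nor the cells it reached nor the time from injection to harvest is stated by the labels.

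Immediate-early genes are transcribed within minutes of a rise in calcium or cyclic AMP in a neuron, without new protein synthesis. Kinases downstream of glutamate and dopamine receptors act on the transcription factors CREB and SRF and on their cofactors, which bind the promoters of these genes. The Egr proteins are zinc-finger transcription factors, the Nr4a proteins are orphan nuclear receptors, Npas4 is a basic helix-loop-helix factor induced by calcium in neurons, Arc regulates AMPA receptor trafficking at synapses, and Ier2 encodes a small nuclear protein. In the striatum several of them, Egr1 and Arc among them, are classical readouts of dopamine and glutamate input to projection neurons.

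Promoter sequences are shown for the pair Nr4a1 and Egr4, whose levels moved together across mice, for Nr4a2, the member that varied most, and for Npas4, the member with the lowest p between genotypes. The sequences are the 250 bases before the RefSeq start on GRCm38.p6, and RefSeq starts were matched for 6 of the 10 members (Egr2, Egr4, Nr4a1, Nr4a2, Nr4a3 and Npas4). Capitals mark the core of the cAMP response element, the site bound by CREB, searched as TGACG and its reverse complement CGTCA. The windows are chr15:101266596-101266845 on the plus strand for Nr4a1, chr6:85513590-85513839 on the minus strand for Egr4, chr2:57124004-57124253 on the minus strand for Nr4a2 and chr19:4989972-4990221 on the minus strand for Npas4.
Nr4a1: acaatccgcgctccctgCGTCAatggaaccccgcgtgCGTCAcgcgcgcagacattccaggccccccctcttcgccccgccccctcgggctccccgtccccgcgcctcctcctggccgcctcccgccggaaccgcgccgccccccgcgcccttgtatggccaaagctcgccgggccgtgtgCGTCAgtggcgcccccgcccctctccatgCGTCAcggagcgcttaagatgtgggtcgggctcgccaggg
Egr4: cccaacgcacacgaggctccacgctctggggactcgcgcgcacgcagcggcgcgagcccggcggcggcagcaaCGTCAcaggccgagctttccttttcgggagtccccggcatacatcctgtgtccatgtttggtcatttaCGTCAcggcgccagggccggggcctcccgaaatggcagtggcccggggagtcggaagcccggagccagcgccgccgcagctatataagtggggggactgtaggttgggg
Nr4a2: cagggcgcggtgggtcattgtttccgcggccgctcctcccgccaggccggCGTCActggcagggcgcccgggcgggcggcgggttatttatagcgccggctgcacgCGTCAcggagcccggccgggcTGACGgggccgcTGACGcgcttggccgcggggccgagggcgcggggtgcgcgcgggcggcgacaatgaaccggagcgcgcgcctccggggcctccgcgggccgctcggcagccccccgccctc
Npas4: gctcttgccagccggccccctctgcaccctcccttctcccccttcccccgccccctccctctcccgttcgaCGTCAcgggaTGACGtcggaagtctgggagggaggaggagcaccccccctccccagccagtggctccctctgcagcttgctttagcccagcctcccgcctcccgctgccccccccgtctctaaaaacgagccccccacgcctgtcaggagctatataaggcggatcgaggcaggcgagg
The core occurred 4 times in the windows of Nr4a1, Nr4a2 and Nr4a3 and 2 times in those of Egr4 and Npas4. Egr2 has 5 RefSeq starts, and the core occurred 2 times at 3 of them. By window, the core was in 8 of the 10 windows of these 6 genes, and the 3 Egr2 windows with it overlap and share the same 2 sites. Of all 32851 promoter windows of that length 17.8% held it. The full palindrome TGACGTCA, which contains the core, was in 0 of these windows and in 1.55% of all. The CArG box, the binding site of SRF, was at 4 of the 5 Egr2 starts, in no window of the other 5 genes and in 1.47% of all windows. The 3 overlapping Egr2 windows share the same CArG site, and the remaining window with a CArG box holds a different site. The Egr site GCGTGGGCG, searched on both strands, was in none of the members' windows and in 0.536% of all. A match describes the letters of a window and is not evidence of binding.

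The libraries held 2660395 to 3669748 reads assigned to genes, and 3 reads in a library, the floor used for low values, corresponded to 0.817 to 1.13 CPM (read counts normalised to library size, which was scaled here by trimmed mean of M values). Foxp2 itself was at 87.0 to 152 CPM in the 8 libraries given the control virus, at 3486 to 4371 CPM in Con+Foxp2 and at 1286 to 1922 CPM in BACHD+Foxp2. The labelled tissue was checked against 20 striatal projection neuron markers, which summed to between 5809 and 11380 CPM in every library, and none was at 0 in all libraries. Markers of cortical excitatory neurons, whose tissue borders the striatum, were present too and varied widely: the mean log2 CPM of the 19 listed genes found in the data ran from 3.97 (Con+Con mouse 4) to 6.46 (Con+Con mouse 3). BACHD+Con mice 2 and 3 were the next lowest, at 4.34 and 4.13. These libraries touch the result for Nr4a2 below.

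Per kilobase of exon, the members spanned a wide range of levels. Egr1 was the most abundant at 67.0 ± 13.2 CPM per kb (mean ± SD over 16 libraries), followed by Arc at 59.8 ± 20.7. Egr3 (27.9 ± 5.09) and Nr4a1 (25.1 ± 6.90) came next. Nr4a3 stood at 12.1 ± 3.03, Nr4a2 at 11.8 ± 9.17 and Egr4 at 9.62 ± 3.33 CPM per kb. The lowest were Npas4 at 4.84 ± 2.64, Egr2 at 3.09 ± 1.35 and Ier2 at 2.02 ± 1.25 CPM per kb. Neighbours in this order overlapped in their mean ± SD ranges, except Arc with Egr3 and Nr4a1 with Nr4a3. Ier2 rested on 1 to 22 reads per library, Egr2 on 7 to 56 and Npas4 on 21 to 118, whereas Egr1 had 541 to 1175, so the precision of the last was far higher.

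**Figure D1:**
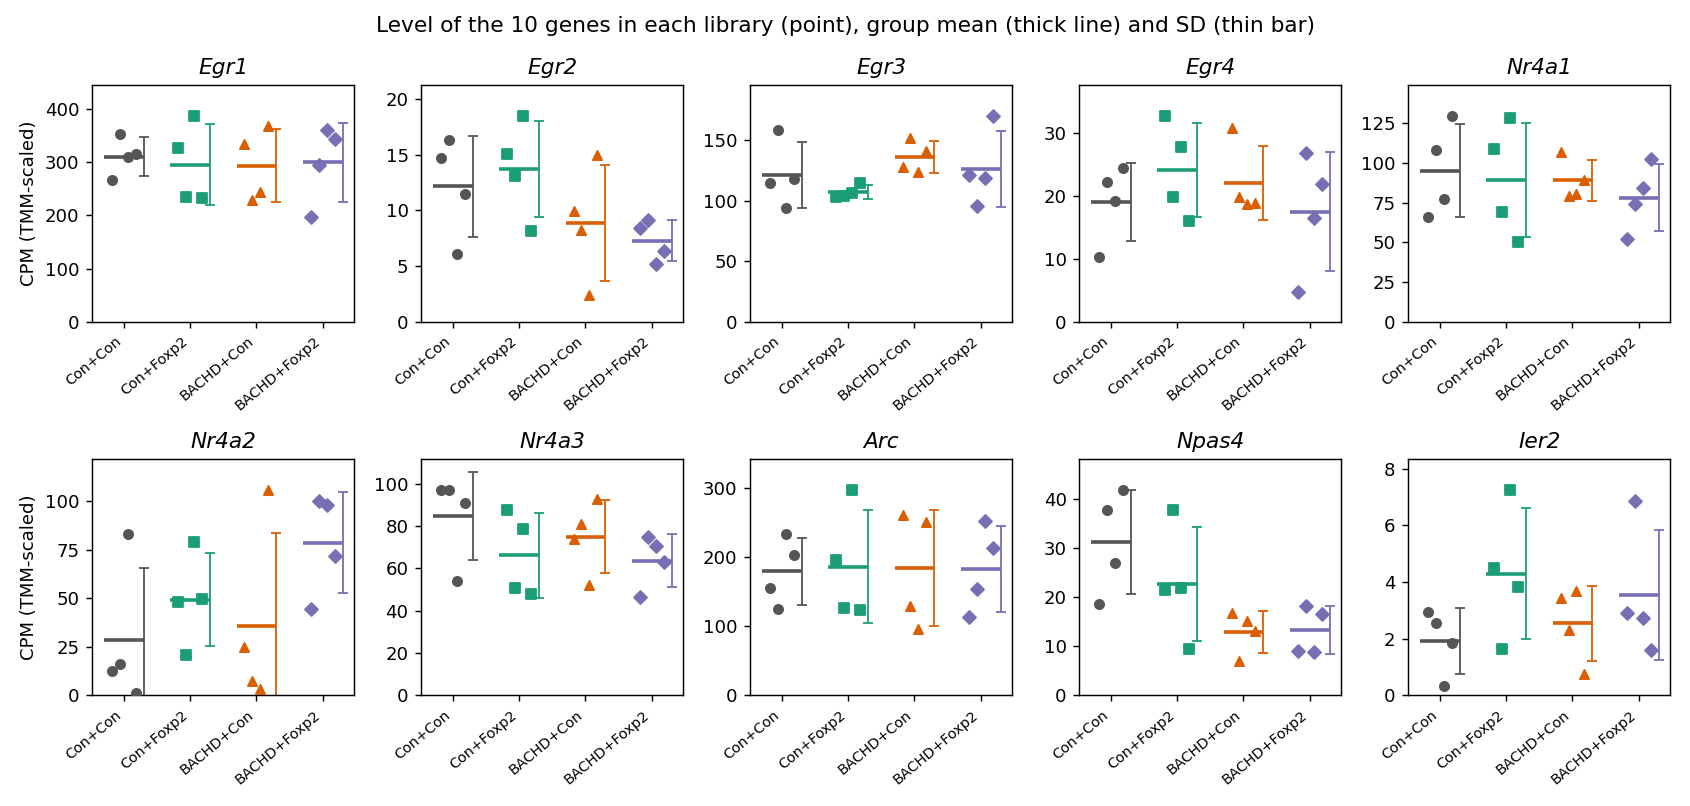
Level of each of the 10 genes in CPM (vertical axes, linear and starting at 0) in the 4 groups of 4 mice; points are libraries in the order of mouse number, thick lines are group means and thin bars are the SD, which end at the axis where they would pass below 0. Egr1 and Arc sit at nearly the same mean in all groups, Nr4a2 runs from 1.11 to 106 CPM, and the 4 BACHD+Con libraries of Npas4 lie below the 4 Con+Con libraries.

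Egr1 (chromosome 18, 34859823 to 34864984, GRCm38, plus strand), the most studied of the Egr factors, was level across the groups. It was at 266, 354, 309.5 and 315 CPM in Con+Con mice 1 to 4, at 328, 235, 388 and 234 in Con+Foxp2, at 335, 229, 244 and 368.5 in BACHD+Con and at 197, 296, 362 and 345 in BACHD+Foxp2. The 4 groups overlapped throughout, and their means lay between 294 ± 68.4 (SD, n = 4) and 311 ± 36.0 CPM. Egr3 (chromosome 14, 70077203 to 70082614, plus strand), a factor also expressed in striatal projection neurons, was the steadiest member, at 94.2 to 170 CPM over all libraries. Its group means ran from 107 ± 5.56 CPM in Con+Foxp2 to 136 ± 13.0 in BACHD+Con, with overlapping ranges between neighbours in that order.

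Egr2 (chromosome 10, 67535475 to 67542188, plus strand), best known for its role in myelinating Schwann cells and also induced by neuronal activity, was low and uneven. Its levels were 14.7, 16.4, 6.09 and 11.5 CPM in Con+Con mice, 15.1, 13.0, 18.5 and 8.16 in Con+Foxp2, 9.94, 8.23, 2.34 and 15.0 in BACHD+Con and 8.38, 9.13, 5.14 and 6.36 in BACHD+Foxp2. The BACHD groups held the lower means (8.87 ± 5.21 and 7.25 ± 1.83 CPM against 12.2 ± 4.52 and 13.7 ± 4.32), but each overlapped its control group. Egr4 (chromosome 6, 85511121 to 85513589, minus strand), a further activity-induced Egr factor, was between 4.74 CPM (BACHD+Foxp2 mouse 1) and 32.7 CPM (Con+Foxp2 mouse 1), with group means from 17.5 ± 9.47 to 24.1 ± 7.53.

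Nr4a1 (chromosome 15, 101254269 to 101274795, plus strand), the receptor also called Nur77, which is induced in striatal neurons when dopamine signalling changes, lay between 50.04 CPM (Con+Foxp2 mouse 4) and 129.8 CPM (Con+Con mouse 4). Its group means ran from 78.2 ± 20.9 CPM in BACHD+Foxp2 to 95.3 ± 29.0 in Con+Con, and all groups overlapped. Nr4a3 (chromosome 4, 48045153 to 48086447, plus strand) was at 97.3, 96.8, 53.8 and 90.9 CPM in Con+Con, and its other group means were 66.1 ± 19.9 in Con+Foxp2, 75.0 ± 17.1 in BACHD+Con and 63.7 ± 12.6 in BACHD+Foxp2. The means under the Foxp2 virus were the lower ones in both genotypes, within overlapping ranges.

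Nr4a2 (chromosome 2, 57106830 to 57124003, minus strand), known from midbrain dopamine neurons and also expressed in the claustrum and deep cortical layers, varied more than any other member. It was at 12.6, 16.03, 83.3 and 1.11 CPM in Con+Con, at 48.1, 20.5, 78.9 and 49.8 in Con+Foxp2, at 25.0, 7.57, 3.35 and 106 in BACHD+Con and at 44.5, 100.1, 98.1 and 71.8 in BACHD+Foxp2. The spread within a control-virus group covered nearly the whole range of the data, from 3 to 307 reads, and the highest library was 95.3 times the lowest. Its biological coefficient of variation, the spread between mice beyond counting error, was 0.748, higher than for 98.1% of the tested genes. Ier2 followed at 0.542 (90.4th percentile), while Egr1 (0.191) and Egr3 (0.162) fell below the median of all tested genes, at the 34.8th and 22.1st percentile.

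Arc (chromosome 15, 74669083 to 74672570, minus strand) had the closest group means of all members, between 179 ± 48.4 and 185.5 ± 81.7 CPM. Single mice differed far more: 155, 125, 233 and 203 CPM in Con+Con mice, 196, 126, 297 and 123 in Con+Foxp2, 260.4, 129, 95.1 and 250.5 in BACHD+Con, and 113, 154, 252 and 213 in BACHD+Foxp2. High and low mice thus occurred in every group. Ier2 (chromosome 8, 84661331 to 84662852, minus strand) was at 0.320 to 7.26 CPM, near the floor of detection in some libraries.

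Npas4 (chromosome 19, 4984355 to 4990316, minus strand), which in neurons is induced by calcium entry and controls genes of inhibitory synapses, had its lowest means in BACHD mice. It was at 18.5, 37.8, 26.9 and 41.9 CPM in Con+Con, at 21.5, 37.8, 21.8 and 9.52 in Con+Foxp2, at 16.8, 6.91, 15.1 and 13.1 in BACHD+Con and at 9.11, 18.3, 8.91 and 16.5 in BACHD+Foxp2. Under the control virus every BACHD mouse lay below every control mouse, and under the Foxp2 virus the groups overlapped. Group means were 31.3 ± 10.6 and 22.7 ± 11.6 CPM in control mice and 13.0 ± 4.31 and 13.2 ± 4.89 in BACHD mice. As in any bulk tissue, fewer cells of a type and less RNA per cell cannot be told apart.

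The first comparison asked whether the Foxp2 virus changed these genes. No member passed edgeR's quasi-likelihood test in either genotype, and the estimates scattered around 0. In control mice 5 members were higher and 5 lower with the Foxp2 virus, with a median log2 fold change of -0.01 against -0.00 over all tested genes. The estimates ran from -0.47 for Npas4 to 1.14 for Ier2 (SE 0.35 and 0.70; edgeR adjusted p = 0.872 and 0.827). Adjusted p over the 10 members lay between 0.827 and 0.989, while 0.229% of all genes were called. At an unadjusted p under 0.05 edgeR listed 0 members, against 7.04% of all genes, and DESeq2 and limma voom called 0 after adjustment and had 0 and 1 without it. The CPM ranges of the groups overlapped for all 10, against 5.01% of genes whose ranges did not.

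In BACHD mice the picture was alike, with 4 members higher and 6 lower and a median of -0.06 against 0.00 over all genes. The estimates ran from -0.33 for Egr4 to 1.17 for Nr4a2 (SE 0.37 and 0.74; edgeR adjusted p = 0.894 and 0.770). edgeR called 0 members (0.243% of all genes called) and listed 0 at an unadjusted p under 0.05 (7.73% of all genes). DESeq2 had 0 and limma voom 1 without adjustment, and both called 0. Group ranges overlapped for all 10 members (4.14% of genes did not overlap). The 2 virus comparisons use separate mice, but each shares its groups with the genotype comparisons below.

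For Egr1 and Egr3 the intervals were the narrowest of the 10. The 95% interval of the virus effect on Egr1 ran from -0.45 to 0.31 on the log2 scale in control mice and from -0.35 to 0.41 in BACHD mice. For Egr3 the intervals were -0.51 to 0.15 and -0.44 to 0.22. Those of Arc were wider, at -0.58 to 0.68 and -0.63 to 0.63, and wider than those of Nr4a1 and Nr4a3. Intervals for Nr4a2 (-0.36 to 2.70 in BACHD mice) and Ier2 (-0.31 to 2.59 in control mice) spanned 0 and were the widest of the 10. Marker lists of other cells differed between virus groups too. The 14 interneuron markers summed to between 492 and 589 CPM in Con+Con against 364.5 to 459 in Con+Foxp2, and to between 450.5 and 613 in BACHD+Con against 357 to 533 in BACHD+Foxp2, where the groups overlapped. Of the 12 microglia markers the sums were 281 to 340.4 against 332.5 to 411 CPM in control mice, which overlapped, and 258 to 312 against 339.6 to 406 in BACHD mice, which did not. Overlap depended on the measure. By mean log2 CPM the interneuron markers did not overlap in BACHD mice either (4.185 to 4.521 against 3.346 to 4.145). By that measure the microglia markers did not overlap in control mice (4.115 to 4.417 against 4.48 to 4.648) and did in BACHD mice (4.015 to 4.33 against 4.31 to 4.699). The 11 astrocyte markers, also by mean log2 CPM, did not overlap in control mice (7.294 to 7.523 against 7.566 to 7.869). They did in BACHD mice (7.148 to 7.473 against 7.421 to 7.663), and their sums overlapped in both genotypes. The 20 projection neuron markers had mean sums of 8708 ± 2910 against 6543 ± 651 CPM in control mice and 8408 ± 1768 against 7057 ± 1007 in BACHD mice, with overlapping ranges. Their part in the members' values was not tested.

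**Figure D2:**
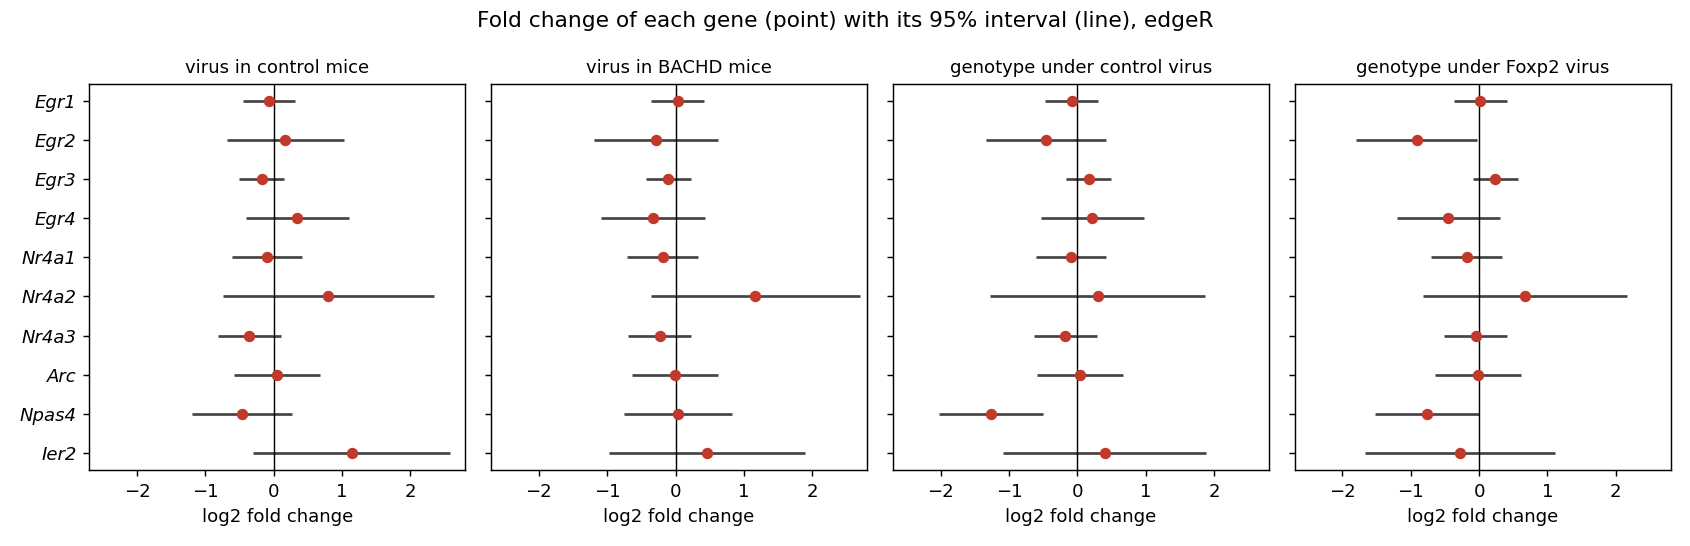
Log2 fold change from edgeR (horizontal axes) of each gene (vertical axis) in the 4 comparisons between groups; points are estimates and lines their 95% intervals. The intervals of Egr1 and Egr3 are the shortest and span 0, as do the wider ones of Arc. Those of Npas4 lie below 0 in both genotype comparisons without an adjusted p under 0.05.

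The second comparison asked whether BACHD mice differed from control mice. Npas4 was the member furthest from 0 under the control virus and over both viruses, and Egr2 under the Foxp2 virus. Both had lower estimates in BACHD mice under each virus, and neither passed the test over all genes. Under the control virus Npas4 was 2.41-fold lower (log2 fold change -1.27, SE 0.37, 95% interval -2.03 to -0.50), with an unadjusted p of 0.00225 and an edgeR adjusted p of 0.9999. Over the 10 members 5 were higher and 5 lower, with a median of -0.02 against 0.00 over all genes. The 2 groups of Npas4 did not overlap (exact permutation p = 0.0286, two-sided, the smallest that 4 mice against 4 can give; 0.935 adjusted over 40 such tests). Non-overlap was found in 1 of 10 members, against 2.43% of all genes. Npas4 was also the 1 member at an unadjusted p under 0.05 (3.44% of all genes) in each of edgeR, DESeq2 and limma voom, all of which called 0 members, beside 0.0147% of all genes in edgeR. With cortical markers as a covariate the estimate for Npas4 was -1.27 (summed) or -1.25 (mean log2 CPM), with unadjusted p of 0.00125 and 0.00145. Without the 3 libraries lowest in these markers it was -1.06 by their sum (unadjusted p = 0.0167) and -0.89 by their mean log2 CPM (0.0656). Both settings left out BACHD+Con mice 2 and 3, and the second also Con+Con mouse 4, so fewer mice were compared. BACHD+Con mouse 2 was the library lowest in Npas4 (6.91 CPM) and Con+Con mouse 4 the highest (41.9 CPM). In the authors' deposited table for the same groups Npas4 had a log2 fold change of -0.59 and an adjusted p of 0.461, the lowest of the members there. Every member's deposited fold change was smaller in size than the edgeR estimate here. For Nr4a2 with the virus in BACHD mice it was 0.15 against 1.17. The sizes from the 2 sources are therefore not directly comparable.

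Under the Foxp2 virus 3 members were higher and 7 lower in BACHD mice, with a median of -0.12 against 0.01 over all genes. Npas4 had an estimate of -0.77 (SE 0.37, 95% interval -1.53 to -0.00, unadjusted p = 0.0489) and Egr2 one of -0.91 (SE 0.43, -1.80 to -0.02, unadjusted p = 0.0445), both with an edgeR adjusted p of 0.998. These were the 2 members at an unadjusted p under 0.05 in edgeR (4.18% of all genes). DESeq2 also had 2 and limma voom 0, and each tool called 0 members, beside 0.059% of all genes in edgeR. No member's groups were free of overlap (3.01% of genes were). Egr1 gave an interval of -0.36 to 0.40 and Arc one of -0.65 to 0.61. Foxp2 itself differed between these groups, at 3999 ± 428.5 CPM in Con+Foxp2 and 1589 ± 287 in BACHD+Foxp2. Genotype and the level of Foxp2 cannot be told apart in this comparison.

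Over both strata at once no member was called either. For BACHD against control mice over both viruses, Npas4 was 2.02-fold lower (log2 fold change -1.02, SE 0.26, unadjusted p = 0.000722, edgeR adjusted p = 0.576), and all 8 BACHD libraries (6.91 to 18.3 CPM) lay below the lowest Con+Con library (18.5 CPM), though not below Con+Foxp2 mouse 4 (9.52 CPM). Egr2 followed at -0.69 (SE 0.30, unadjusted p = 0.0325, edgeR adjusted p = 0.999). Those 2 were again the members at an unadjusted p under 0.05 (4.05% of all genes), in DESeq2 and limma voom too, and 0 were called by any of the 3 (0.0369% of all genes in edgeR). For the virus over both genotypes edgeR called 0 members (1.05% of all genes) and listed 0 at an unadjusted p under 0.05 (10.8% of all genes), against 0 in DESeq2 and 1 in limma voom. The members nearest to that threshold were Nr4a3 (log2 fold change -0.30, SE 0.16, unadjusted p = 0.0738) and Nr4a2 (0.98, SE 0.52, unadjusted p = 0.0741).

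Whether the virus acted differently in the 2 genotypes was tested as an interaction. Foxp2 reached a higher level in Con+Foxp2 than in BACHD+Foxp2 mice, so genotype and Foxp2 level cannot be told apart here either. edgeR called 0 members, as it called 0.0% of all genes, and listed 0 at an unadjusted p under 0.05 (3.8% of all genes); DESeq2 and limma voom had 0 on both counts. The estimate for Npas4, whose mean was lower with the Foxp2 virus in control mice and level in BACHD mice, was 0.50 (SE 0.52, 95% interval -0.57 to 1.58). For Egr4, higher with the virus in control and lower in BACHD mice, it was -0.67 (SE 0.52, -1.74 to 0.40). Neither was distinguishable from 0.

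Nr4a2 followed the cortical markers across libraries. Over 16 libraries its log2 CPM had a Pearson's r of 0.927 and a Spearman's rho of 0.918 with their mean log2 CPM (permutation p = 1e-05 for each, the smallest 100000 resamples can give; 0.0002 after Benjamini-Hochberg adjustment over 20 relations of the members with 2 marker lists). Without the 2 libraries farthest from the median r was 0.853, for deviations from group means it was 0.945, and without the 3 libraries lowest in the markers it was 0.777. Con+Con mouse 4, lowest in the markers, had 1.11 CPM of Nr4a2, and Con+Con mouse 3, the highest, had 83.3. The projection neuron markers ran the other way (r = -0.779, rho = -0.756, permutation p adjusted over 20 = 0.0054 and 0.0094; r without the 2 farthest libraries -0.753).

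No other member passed on both measures. Arc had an r of 0.522 with the cortical markers (rho 0.462; permutation p adjusted over 20 = 0.200 and 0.352) and Egr1 one of 0.403 (rho 0.347; 0.408 and 0.5395). Egr3 with the projection neuron markers gave r = 0.606 and rho = 0.662 (permutation p adjusted over 20 = 0.0895 and 0.0442; r without the 2 farthest libraries 0.608). Npas4 had r = -0.176 and rho = -0.118 with the cortical markers and 0.218 and 0.0971 with the projection neuron markers, with permutation p adjusted over 20 of at least 0.757. Over both genotypes, the virus effect on Nr4a2 with the summed cortical markers as a covariate was 0.97 (SE 0.23, edgeR adjusted p = 0.0271), the 1 alternative of 25 in which it was called, and with their mean log2 CPM as covariate it was 0.75 (SE 0.21, adjusted p = 0.104). Without the 3 libraries lowest in that mean it was 0.34 (SE 0.38, adjusted p = 0.908). Those 3, Con+Con mouse 4 and BACHD+Con mice 3 and 2, all received the control virus. They also held the 3 lowest values of Nr4a2 (1.11, 3.35 and 7.57 CPM), so leaving them out raised the control-virus side alone. The virus effect on Nr4a2 was larger than the 0.98 of all libraries with limma voom (2.03, adjusted p = 0.0703), without Con+Con mouse 3 (1.72, 0.0837) and without BACHD+Con mouse 4 (1.76, 0.0868). Over the 25 alternatives adjusted p ran from 0.0271 to 0.908. Within genotypes, leaving out 1 mouse moved the virus effect on Nr4a2 between 0.41 and 2.28 in control mice (lowest without Con+Con mouse 4, highest without Con+Con mouse 3) and between 0.79 and 2.72 in BACHD mice (lowest without BACHD+Con mouse 3, highest without BACHD+Con mouse 4). The direction between genotypes under the control virus turned with 1 library: 0.30 with all libraries, 1.78 without Con+Con mouse 3 and -1.26 without BACHD+Con mouse 4.

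**Figure D3:**
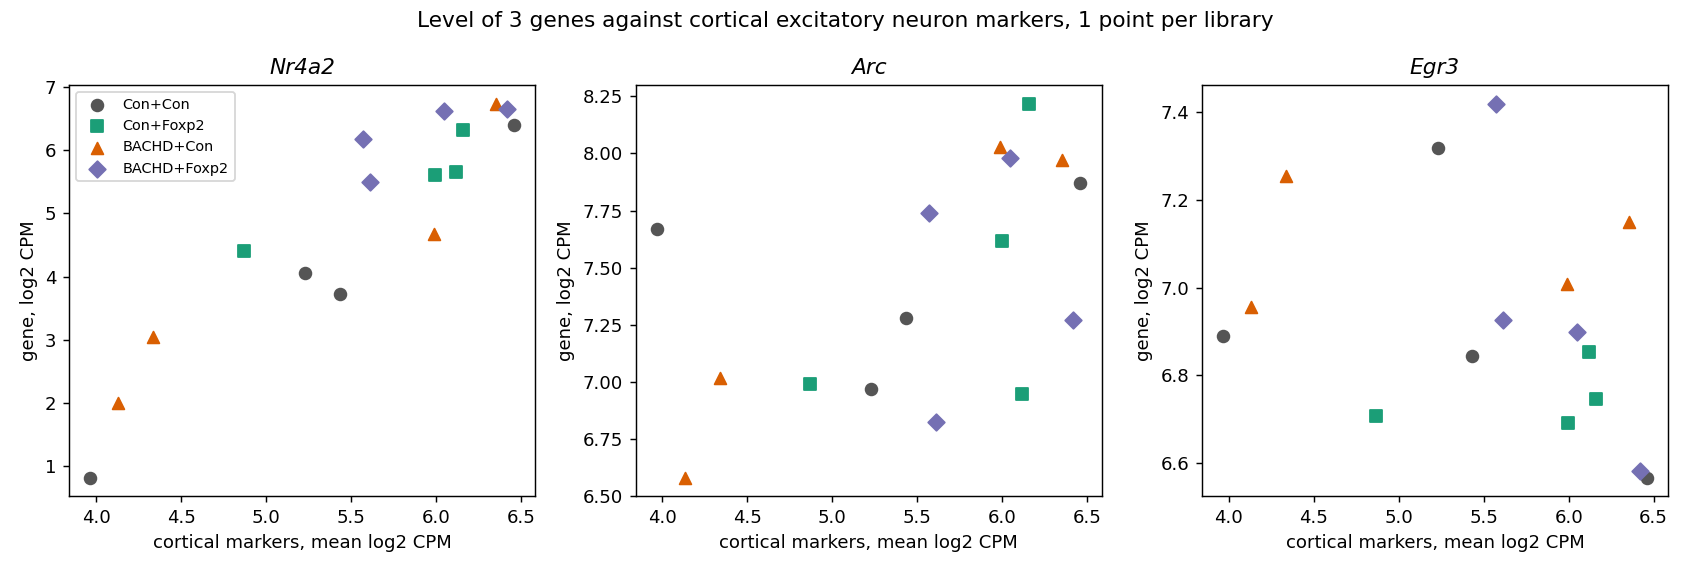
Log2 CPM of Nr4a2, Arc and Egr3 (vertical axes, which do not start at 0) against the mean log2 CPM of the cortical excitatory neuron markers (horizontal axes), 1 point per library, with colour and shape giving the group. Nr4a2 climbs along the markers in every group (r = 0.927), and Arc (r = 0.522) and Egr3 (r = -0.327) are scattered.

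The members were also compared with each other over the 16 libraries. Egr1 varied with Arc and with Nr4a1, and Nr4a1 with Egr4, while no pair that included Egr2, Egr3, Nr4a2, Nr4a3, Npas4 or Ier2 passed. Of 45 pairs, 32 had an r above 0, with a median of 0.210 and a range from -0.275 (Nr4a2 with Npas4) to 0.815, and 3 pairs passed after adjustment over the 45. Egr1 with Arc gave r = 0.815 and rho = 0.768 (permutation p adjusted over 45 = 0.00765 and 0.0290). Egr1 with Nr4a1 gave r = 0.788 and rho = 0.744 (0.00765 and 0.0290), and Egr4 with Nr4a1 r = 0.7255 and rho = 0.732 (0.0150 and 0.0290).

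These 3 relations had about the same size within groups as across them. Without the 2 libraries farthest from the median of the first gene r was 0.791, 0.756 and 0.665, and for deviations from group means it was 0.821, 0.8045 and 0.758. The mice that were high in Arc, such as Con+Foxp2 mouse 3 (297 CPM), were high in Egr1 too (388 CPM), and Con+Foxp2 mouse 4 was low in both (123 and 234 CPM). Next in order were Nr4a1 with Nr4a3 (r = 0.630, adjusted p = 0.0839) and Egr1 with Egr4 (r = 0.628, adjusted p = 0.0644 by permutation), neither of which passed. Members share libraries and their depth, and the labels name no batch.

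**Figure D4:**
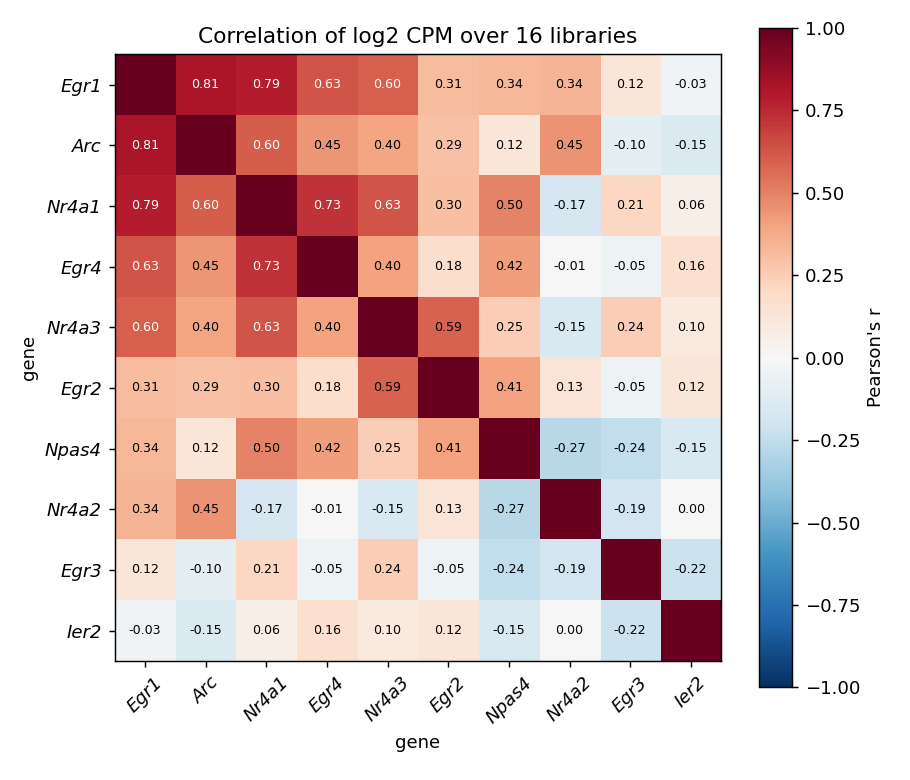
Pearson's r of log2 CPM between each pair of the 10 genes over 16 libraries (both axes list the genes; colour runs from -1 in blue to 1 in red, with r printed in each cell). Egr1, Arc, Nr4a1 and Egr4 form the red corner, with Egr1 and Arc at 0.815, and the rows of Egr3 and Ier2 are pale.

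The tested genes most like the members were named by the highest Pearson's r over the 16 libraries, given as a description. For Egr1 they were Homer1 (r = 0.904), which encodes a postsynaptic scaffold protein with an activity-induced short form, Scand1 (0.841) and Cx3cl1 (0.827), the neuronal chemokine fractalkine. Homer1 lay between 203 and 339 CPM. For Arc they were Mal2 (0.8235), Fmnl1 (0.810) and Smpd4 (0.8075). The mean of the 10 members was closest to Xylt1 (0.791), an enzyme of proteoglycan synthesis, then Fsd1 (0.780), Arhgap1 (0.758), Trak1 (0.744), Mxi1 (0.744) and Inpp5b (0.741). Nr4a2 and Npas4 were looked up after their values were seen. Nr4a2 was closest to Neurod2 (0.957), a cortical neuron factor on the marker list, Ncald (0.947) and Basp1 (0.9375), and Npas4 to Gins4 (0.812), Ptrhd1 (0.798) and Pde11a (0.773).

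Among other activity-induced genes Jun was the 1 called. Of 52 listed, 48 were tested and Jun, an AP-1 transcription factor, rose with the Foxp2 virus in both genotypes. It went from 55.7 ± 7.37 to 108 ± 15.9 CPM in control mice (log2 fold change 0.96, SE 0.20, edgeR adjusted p = 0.0366) and from 41.8 ± 16.1 to 93.2 ± 10.2 CPM in BACHD mice (1.16, SE 0.20, adjusted p = 0.00845). Over both genotypes the estimate was 1.06 (SE 0.14, edgeR adjusted p = 0.00023). Thus 1 of the 48 was called in control mice, in BACHD mice and over both genotypes, beside 0.229%, 0.243% and 1.05% of all genes. The list had 0 calls in the genotype comparisons and the interaction, beside 0.0% to 0.059% of all genes. The part of the marker lists compared between virus groups above (interneurons, microglia, astrocytes and projection neurons) in the level of Jun was not tested.

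The remaining genes of that list are given by their lowest p. Under the virus in control mice 32 of 48 were higher (median 0.24 against -0.00 over all genes) and 9 had an unadjusted p under 0.05, which is 18.8% against 7.04% of all genes. In BACHD mice 22 were higher (median -0.03) and 3 had an unadjusted p under 0.05, 6.25% against 7.73% of all genes. For the virus over both genotypes 10 were under that threshold (20.8% against 10.8%), and for the interaction 4 were (8.33% against 3.8%). Trib1, a pseudokinase that modulates kinase signalling, was 8.25 ± 3.44 CPM in Con+Con mice and 19.9 ± 7.80 in Con+Foxp2 (log2 1.26, SE 0.43, edgeR adjusted p = 0.423), and Rgs4, a regulator of G protein signalling, 363 ± 74.5 and 282 ± 29.6 (-0.36, SE 0.13, adjusted p = 0.423). In BACHD mice Trib1 was 8.20 ± 5.07 and 16.5 ± 6.34 CPM (1.02, SE 0.44), and Plk2, a kinase of synaptic homeostasis, 286 ± 45.8 and 229.8 ± 44.0 (-0.31, SE 0.14). Between genotypes the list had 2 members at an unadjusted p under 0.05 under each virus, 4.17% against 3.44% and 4.18% of all genes. Fosb (11.2 ± 4.69 and 18.7 ± 4.85 CPM), Scg2 (228 ± 46.0 and 291 ± 36.0) and Klf4 (3.45 ± 0.651 and 7.98 ± 2.61) led under the control virus, with the BACHD mean the higher. Dusp1, Csrnp1 and Rasd1 led under the Foxp2 virus, with log2 fold changes of -0.87, 1.32 and -1.53 and edgeR adjusted p of 0.998. Fos, named after its values were seen, was at 8.38 ± 3.35 CPM in Con+Con, 17.3 ± 6.41 in Con+Foxp2, 14 ± 4.78 in BACHD+Con and 13.5 ± 6.09 in BACHD+Foxp2 and was not called.

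The upstream regulators and cofactors of these genes were measured as well. All 37 listed genes, among them CREB and SRF factors, calcium and MAP kinases and the RXR partners of the Nr4a receptors, were tested. Of these, edgeR called 0 in any of the 7 contrasts, beside 0.0% to 1.05% of all genes. At an unadjusted p under 0.05 there were 3 and 2 of 37 for the virus in control and in BACHD mice (8.11% and 5.41%, against 7.04% and 7.73% of all genes) and 2 and 1 between genotypes under the control and the Foxp2 virus (5.41% and 2.7%, against 3.44% and 4.18%). For the virus over both genotypes there were 6 (16.2% against 10.8%). Genotype over both viruses and the interaction had 1 each (2.7%, against 4.05% and 3.8%). With the virus 14 of 37 were higher and 23 lower in control mice and likewise in BACHD mice (median -0.08 and -0.03, against -0.00 and 0.00 over all genes). Of all genes 49.4% and 50.2% were higher. How many of the lower ones were the same genes was not counted. In BACHD against control mice 22 of 37 were higher under the control virus, 25 under the Foxp2 virus and 28 over both viruses. The shares of all genes higher there were 50.1%, 51.3% and 51.0%. Rxrg, the retinoid X receptor gamma and a striatal partner of Nr4a1, was 87.2 ± 39.99 CPM in Con+Con mice and 49.7 ± 11.2 in Con+Foxp2 (log2 -0.81, SE 0.25, edgeR adjusted p = 0.323). Camk2b, a calcium-activated kinase, was 1083 ± 158 and 879 ± 55.6 CPM in control mice (-0.30, SE 0.11) and 1138 ± 122 and 946 ± 120.1 in BACHD mice (-0.27, SE 0.11). Mkl2, a cofactor of SRF, was 652 ± 99.1 and 549 ± 69.8 CPM in control mice, and Crtc1, a coactivator of CREB, 266 ± 19.0 and 207 ± 31.5 in BACHD mice (-0.25 and -0.36, SE 0.11 and 0.14). Prkaca, the catalytic subunit of protein kinase A, followed in BACHD mice at -0.26 (SE 0.13). Between genotypes the members of this list with the lowest p were Elk3 (-0.52, SE 0.22), Map2k1 (0.25, SE 0.12) and Elk4 (-0.34, SE 0.19) under the control virus and Mkl2 (0.24, SE 0.11), Crtc3 (0.43, SE 0.24) and Prkaca (-0.23, SE 0.13) under the Foxp2 virus, with edgeR adjusted p of 0.998 or more.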

How the data were processed

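Striatal RNA was extracted with the Qiagen RNeasy Lipid Tissue kit and libraries were made with Clontech SMARTer, per the labels' protocols. The authors deposited whole-number read counts per gene for each of 16 mice. HTSeq, STAR 2.4.0, DESeq2 and the build mm10 are listed in the submitters' processing notes, with no order. The strand setting of the counting is not stated by the labels. No member overlaps another annotated gene. Log2 fold changes and adjusted p-values from 3 tables deposited by the authors were copied beside the values computed here. Reads not assigned to a gene were left out of library sizes. They leave 22.5% to 24.7% of listed reads as gene counts.

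edgeR 4.0.16 (R 4.3.3) gave the quasi-likelihood test of the counts (trimmed mean of M values, filterByExpr, 1 fit of 16 libraries with a mean per group, 12 residual degrees of freedom, two-sided, Benjamini-Hochberg over 13563 genes, called at an adjusted p under 0.05). Log2 CPM used a prior count of 2. Exact permutation tests and correlations used log2 CPM. DESeq2 1.42.0 and limma 3.58.1 were alternatives, with other scaling, no filter, single groups, a replicate block, cortical markers as a covariate or their lowest libraries left out, and each mouse left out. The scripts were tested on simulated data, with changes set in genes above a minimum level. For the virus in control mice edgeR called 58 of 100 simulated 2-fold changes and 91 of 100 4-fold changes, beside 10 unchanged genes. A 2-fold change of a member could therefore go uncalled. Lengths and coordinates are those of GENCODE M21. The members and gene lists were chosen with earlier results of these data known. Named genes were all members, called genes of the 2 pathway lists with the 3 lowest p per comparison, the genes most like the members' mean (6), Egr1 and Arc (3 each), and Foxp2 as label check. Replicates are separate mice, per the labels.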

Additional observations from a re-analysis of the deposited data

Results flagged for a closer look

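Of 40 sets of 4 libraries (10 genes in 4 groups), 2 held a library set apart from the other 3 by Dixon's criterion, which chance flags in about 1 of 20 groups. Egr4 was at 30.8 CPM in BACHD+Con mouse 1, against 18.8, 18.8 and 19.7 CPM in the other 3 mice, a gap of 0.918 of the group's range. Nr4a3 was at 53.8 CPM in Con+Con mouse 3, against 90.9, 96.8 and 97.3 CPM in the others, a gap of 0.852. That Con+Con library also had the highest cortical marker level of the 16.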

How the results depend on the processing

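Members called stayed at 0 in all 7 contrasts under DESeq2's test and size factors, limma voom, no filter and the lowest cortical libraries left out, and in the 4 comparisons between groups with those groups alone (not run for the other 3). With those groups alone, Ier2 passed the filter on low counts only between genotypes under the Foxp2 virus and was otherwise not tested. With summed cortical markers as a covariate, 1 member, Nr4a2, was called, for the virus over both genotypes. Leaving out each mouse gave 0 to 0 members called in each contrast. Settings on the mean log2 CPM of cortical markers were chosen after seeing the data. With a replicate block 0 members were called in any contrast. Same-numbered mice had correlations of deviations from -0.168 to 0.102 (24 pairs, 2 over 0.1). The median was -0.0094 for these pairs and -0.0038 for the 72 pairs of mice with different numbers. Whether equal numbers mark a shared batch was not tested. Of 1467 recomputed fold changes of members, 1420 moved by less than 1 SE, 46 by more and 1 became a call. Direction changed in 167, all of them uncalled. Npas4 kept its direction in all 18 settings of each genotype comparison: -1.45 to -0.89 under the control virus (adjusted p 0.726 to 1.00) and -1.03 to -0.40 under the Foxp2 virus. Over both viruses its estimate ran from -1.15 to -0.73 in 25 settings, with 0 calls. The adjusted p there ran from 0.0849 (edgeR without a filter) to 0.9996 and was 0.218 in DESeq2.

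Counts of all genes called moved by over 1.5 times under some settings. For the virus in control mice the count was 31, and 10 to 46 with a mouse left out, 74 with DESeq2, 75 without a filter, 66 with the covariate and 16 without the lowest cortical libraries by sum. In BACHD mice it was 33, and 9 to 26, 61 with DESeq2, 53 without a filter, 19 with the contrast's groups alone and 3 or 6 without the lowest cortical libraries. Over both genotypes it was 143, and 232 with DESeq2 and 47 or 61 without the lowest cortical libraries. Between genotypes it was 2 under the control virus (1 to 3 over all settings), 8 under the Foxp2 virus (4 to 14) and 5 over both (3 to 8), and for the interaction 0 (0 to 3). Depth limits Ier2 (1 to 22 reads per library) and Egr2 (7 to 56) most.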
